A study of Mus musculus with 43 samples.

Results

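The genes described here are 9 complement components and receptors: the components C3, C4b, Cfb and C6, the regulator Cfp, and the receptors C3ar1, C5ar1, C5ar2 and Cd93. They were chosen by name and are 9 of the 56941 gene identifiers counted in 43 libraries of sorted mouse bone marrow cells. Unconditioned wild-type mice carrying the CD45.1 form of the leukocyte antigen CD45 had received whole marrow cells from JAK2V617F donors carrying CD45.2 (5 M, M standing for 1000000), and age- and sex-matched CD45.1 mice left untransplanted served as controls. JAK2V617F is the activating JAK2 mutation of myeloproliferative neoplasms. About 7 months later, marrow was sorted into recipient CD45.1 cells (n = 7), donor CD45.2 cells of the same 7 mice (n = 7) and control CD45.1 cells (n = 8). A fraction enriched for stroma, negative for both CD45 forms and for B220, Ter119, NK1.1, CD4, CD8, CD11b and Ly-6G/Ly-6C, the antigens of blood-cell lineages, was sorted from the same transplanted mice (n = 7) and the same controls (n = 8). Cells carrying both CD45.1 and CD11b, a myeloid surface integrin, came from other mice, all male, 52 weeks after transplantation (n = 3) and from controls (n = 3). No group of mice had been given normal marrow, so the mutation and transplantation cannot be told apart in any comparison with controls. Donor library 1 carried a title naming donor cells and a characteristic naming recipient-derived cells. Donor changes of C4b, Cfb, C3 and C3ar1 from controls are therefore given with and without it. All other donor results include it unless stated.

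Complement is a cascade of plasma proteins that marks targets for removal. In the classical pathway C1q binds a target and C4 and C2 form the enzyme that cleaves C3, and in the alternative pathway factor B (Cfb) forms that enzyme with C3 itself, stabilized by properdin (Cfp). Downstream, C5 is cleaved and C6 joins the membrane attack complex. The fragments C3a and C5a signal through C3ar1 and C5ar1, and C5ar2 is a further C5a receptor that does not couple to G proteins. Cd93 is a surface glycoprotein of endothelial and myeloid cells, once described as a C1q receptor. The liver makes most plasma complement, while macrophages, mesenchymal cells and other cells make components locally, and neutrophils store properdin.

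In the GRCm38 annotation (GENCODE M21), C3 lies at chr17:57203970-57228136, C4b at chr17:34728380-34743882, Cfb at chr17:34856374-34862518, Cfp at chrX:20925454-20931555, C3ar1 at chr6:122847138-122856161, C5ar2 at chr7:16234585-16244154, C5ar1 at chr7:16246743-16259540 and Cd93 at chr2:148436640-148443563, all on the minus strand. C6 lies on the plus strand at chr15:4727175-4814967. C5ar1 and C5ar2 are neighbours, 2588 bases apart. The deposited counts are on GRCm39, whose sequence was not used here, and coordinates were not converted.

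For 2 of the genes the sequence bears on how far a read can be assigned. C4b has a close copy, C4a, 65209 bases away on the same strand, and their transcripts are identical at 96.1% of 5367 aligned bases. The stretch below is the 60-base coding window with the most differences, 13, at transcript positions 2761 to 2820 of C4b (chr17:34735430-34735489, GRCm38, minus strand). Capitals mark the bases that differ.
C4b: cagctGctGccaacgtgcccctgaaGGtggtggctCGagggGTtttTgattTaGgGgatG
C4a: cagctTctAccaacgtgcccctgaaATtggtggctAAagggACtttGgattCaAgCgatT
Of all 150-base windows of the C4b transcript, 8.3% (432 of 5230) also occur unchanged in C4a, so most windows of a read's length can tell the copies apart, but the counting of shared ones is not given in the sources used here and the division between the copies is uncertain.

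Cfb is covered over 99.4% of its length by the readthrough gene Gm20547, annotated on the same strand, which joins exons of the neighbouring complement gene C2 to exons of Cfb. The junction in the Gm20547 transcript is shown because everything after it is shared with Cfb. Lower case is the last C2 exon base and those before it (ending at chr17:34863345, GRCm38, minus strand), and capitals begin with the first shared Cfb base (chr17:34861964).
Gm20547: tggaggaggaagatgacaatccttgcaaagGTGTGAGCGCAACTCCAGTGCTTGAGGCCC
From that base on, 2246 bases are identical to Cfb, which is 81.6% of the 2751-base Cfb transcript, and 80.7% of the 150-base windows of Cfb occur in Gm20547. For C2 the share was 48.3%, and for the 7 members other than C4b and Cfb it was 0. The deposited counts gave Cfb 5688 reads in all 43 libraries together and Gm20547 0, although the deposited TPM values (transcript abundance per gene length, scaled to 1000000 a library) gave Cfb 85.2 ± 28.7 in control stroma (SD, n = 8). There the ratio of TPM to CPM (counts scaled to 1000000 a library) was 16.6 for Cfb against a median of 0.703 over 8354 genes of at least 10 TPM, and 231 of those genes (2.77%) had a higher one. Cfb levels are therefore given in TPM, with the count-based value beside them where there is one. In TPM Gm20547 stood at 0.199 in control stroma. How reads of the shared part were divided is not given, so Cfb values may include readthrough reads. The tool that made the TPM values is not given in the sources used here.

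Library totals ran from 15.71 to 19.68 M counts in the 3 CD45 sorts, 32.48 to 44.85 M in the CD11b sorts and 41.21 to 143.23 M in stroma. The stroma libraries were made with a low-input kit and the others with a directional poly-A kit, so levels in stroma are set beside the other levels without a test. Markers of mesenchymal stroma summed to 2512 to 15170 TPM in the stroma libraries and at most 36.2 TPM in the CD45 and CD11b sorts. Blood-cell RNA was also present in stroma despite the gate: neutrophil markers summed to 6582 to 61160 TPM there, and erythroid markers to 2338 to 7898 TPM in controls and 10140 to 72680 TPM in transplanted mice. In the bulk libraries fewer cells of a type and less RNA per cell cannot be told apart.

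Across the 7 groups the 9 genes fell into 3 patterns of TPM. C4b, Cfb and C6 were highest in stroma, C3, C3ar1 and C5ar2 had their highest mean in a CD11b group, and Cfp, C5ar1 and Cd93 in a CD45 sort (ranked by CPM, 3, 5 and 1 genes; by the median TPM, 3, 2 and 4). The highest CD11b mean of C3ar1 rests on 1 of 3 libraries, at 3.14 TPM beside 0.30 and 0.56. The most abundant were C3, at 369.8 ± 75.9 TPM in control CD45.1 cells (SD, n = 8), C5ar1 at 194.7 ± 41.3 and Cfp at 144.3 ± 11.8, followed by Cd93 at 49.8 ± 8.48. C5ar2 at 4.82 ± 1.15, Cfb at 2.01 ± 0.557, C3ar1 at 0.691 ± 0.201 and C4b at 0.58 ± 0.329 TPM were low in the same cells, and C6 was listed at 0 in all 8 libraries. For C4b and C6 every stroma library lay above every other library, and for Cfb all but 1 did, stroma library 5 of the transplanted mice at 24.2 TPM lying just below 1 CD11b library at 25.1. C3, Cfp and Cd93 were lower in stroma than in every CD45 library without overlap.

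**Figure D1:**
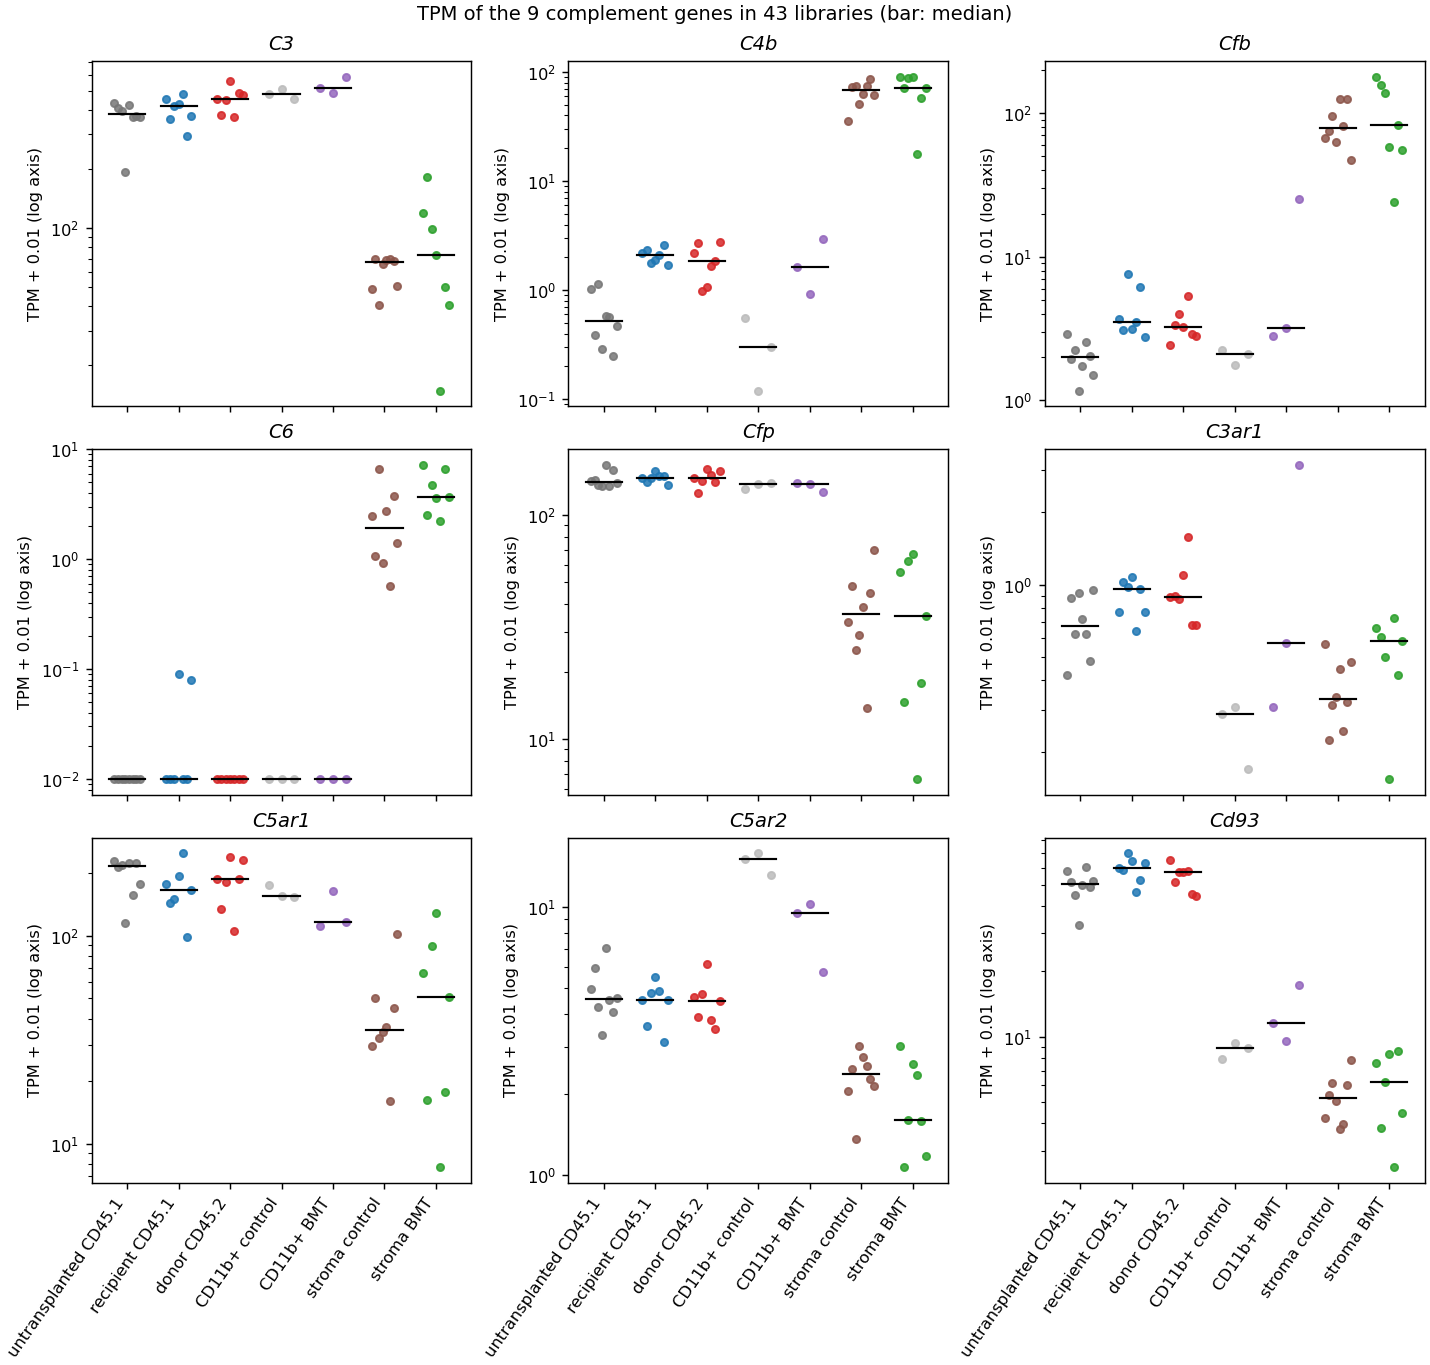
Deposited TPM of the 9 complement genes in each of the 43 libraries, 1 panel a gene, with the 7 sample groups on the x axis, TPM + 0.01 on a log y axis and bars for the median. C4b and C6 stand in stroma above every CD45 and CD11b library, Cfb does so but for 1 stroma library (24.2 TPM) below 1 CD11b library (25.1 TPM), and C3 and Cfp are lower in stroma than in the other sorts.

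C4b, the C4 component of the classical pathway, rose in recipient and in donor cells of the transplanted mice. In recipient CD45.1 cells it read 7.07, 7.19, 6.15, 5.11, 9.26, 6.78 and 4.65 CPM. In control CD45.1 cells it read 2.91, 0.838, 2.31, 0.774, 1.41, 0.826, 0.936 and 1.66 CPM. Every recipient library thus lay above every control. The share of all genes without overlap was not counted, here or for donor cells, so its absence is a description only. The means were 6.60 ± 1.52 (SD, n = 7) and 1.46 ± 0.792 CPM (n = 8), a log2 change of 2.27 ± 0.24 (SE; 4.82-fold, edgeR adjusted p = 8.3e-06). These rest on 84 to 157 reads a recipient library and 12 to 50 a control library. C4b was the only 1 of the 7 members tested that passed, where 16.2% of all 14073 genes tested did. DESeq2 also called C4b alone (19.9% of all genes). C4b passed in 26 of 27 settings, with adjusted p from 9.48e-19 to 0.0549, the exception being the females alone at a log2 of 1.85 (edgeR adjusted p = 0.0549).

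Its close copy C4a read 0.727 ± 0.300 CPM in recipient cells (SD, n = 7) and 0.744 ± 0.263 in controls (n = 8), which is a log2 change of -0.03 ± 0.28 (SE; 95% interval -0.59 to 0.52, edgeR adjusted p = 0.948), on 4 to 21 reads a library.

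Donor CD45.2 cells read 5.50, 7.01, 3.95, 4.68, 4.36, 7.00 and 11.4 CPM for C4b, again all above the highest control. On the deposited TPM scale recipient cells (1.68 to 2.58) also stood clear of controls (0.24 to 1.13), whereas 2 donor libraries, at 0.98 and 1.07 TPM, lay within the control range. The log2 fold change against control was 2.19 ± 0.23 (SE; 4.56-fold, edgeR adjusted p = 6.44e-07) and 2.32 without donor library 1 (edgeR adjusted p = 6.9e-07). C4b was the only 1 of 7 members tested that passed here too, where 45.5% of 13906 genes did, and it passed in 27 of 27 settings. Donor and recipient comparisons share the control libraries. Set against each other directly, donor and recipient cells differed by a log2 of -0.11 ± 0.20 (SE; 95% interval -0.50 to 0.28, edgeR adjusted p = 0.777). None of the 7 members tested passed between donor and recipient cells, or had an unadjusted p below 0.05, where 14% of 13662 genes passed (27.6% at the unadjusted p); DESeq2 called none of them either. With the animal as a block C3 passed (edgeR adjusted p = 0.0107, where 33.8% of genes passed). C4b passed in none of 26 other settings, that block among them (edgeR, limma or DESeq2 adjusted p from 0.37 to 0.95). Without donor library 1, Cd93 was at a log2 of -0.17 (edgeR unadjusted p = 0.0498, adjusted p = 0.176) and C4b at -0.05 (edgeR adjusted p = 0.902).

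**Figure D2:**
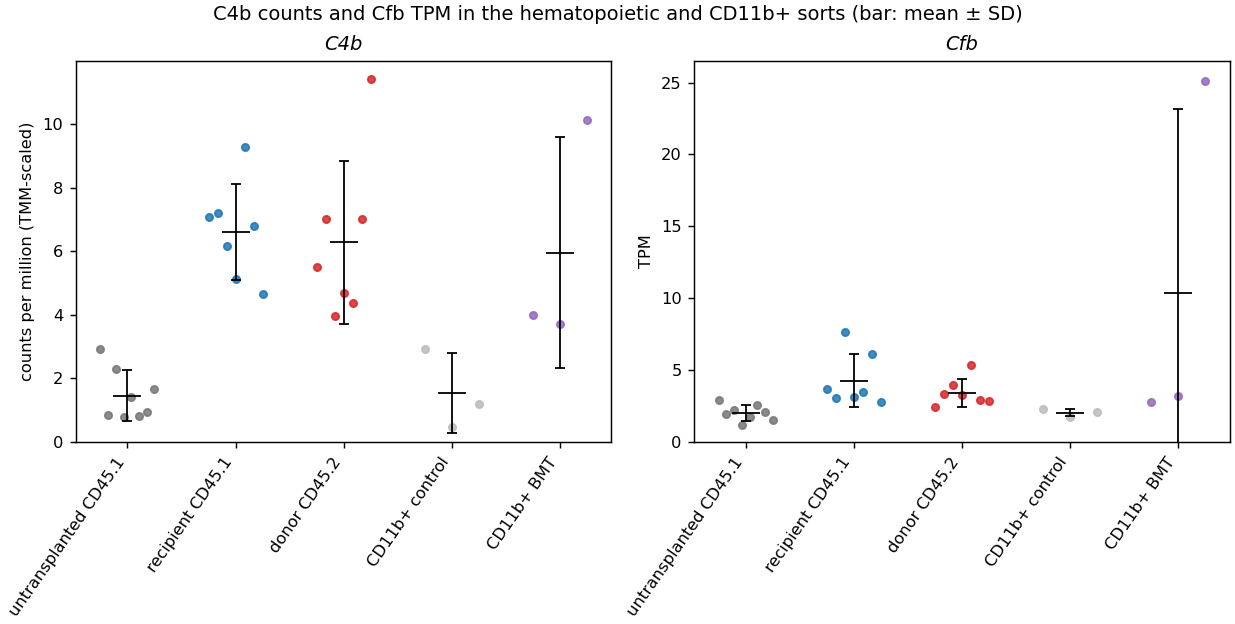
C4b in TMM-scaled CPM (left) and Cfb in TPM (right) for each library of the CD45 and CD11b sorts, with bars for mean and SD (the lower end of the Cfb bar of transplanted CD11b cells falls below 0 and is not drawn). C4b of recipient cells (4.65 to 9.26 CPM) and donor cells (3.95 to 11.4 CPM) lies above all 8 controls (0.774 to 2.91 CPM), and the Cfb value of 1 transplanted CD11b library, 25.1 TPM, stands apart.

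Other cell-type markers moved beside C4b in recipient cells, where 8.56% of all genes rose and 7.65% fell. Of 8 macrophage markers tested 6 rose, among them Cd5l at a log2 of 4.70 and Hmox1 at 0.62, and their summed TPM was 86.9 to 128.1 in recipients and 72.8 to 86.5 in controls, with 1 of the 12 listed markers at 0 in every library of both groups. Of 10 monocyte markers 5 rose and 1 fell, and all 10 B-lineage markers fell. Mesenchymal stroma, where C4b was highest, had 1 of 7 tested markers higher, Kitl at 0.87, and its summed TPM was 22.4 to 36.2 in recipients and 14.5 to 32.2 in controls. In donor cells 22.7% of all genes rose and 22.8% fell. There 1 of 7 macrophage markers rose, 2 of 10 monocyte markers rose and 1 fell, and 3 of 6 mesenchymal markers fell while 1 rose. All 10 B-lineage markers and 9 of 10 T and NK markers fell there, the other T and NK marker rose, and 5 of 10 erythroid markers rose while 2 fell. The summed B-lineage markers of donor library 1 were at 22.4 TPM. Donor libraries ran from 12.2 to 35.7 TPM and recipient libraries from 82.7 to 344.7 TPM. The part of these markers in the C4b result was not tested.

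In stroma C4b was abundant in both groups and did not pass the test. Control stroma ranged from 102.7 to 295.9 CPM with a median of 212.5, and stroma of transplanted mice from 55.7 to 345.0 with a median of 254.4. The ranges overlapped almost fully, with a log2 change of 0.20 ± 0.29 (SE; 95% interval -0.36 to 0.77, edgeR adjusted p = 0.998). Over the 15 libraries C4b had a Pearson r of 0.789 with the summed mesenchymal markers (permutation p = 0.00874, adjusted p = 0.0348 over 27 relations of 9 genes with 3 marker lists) and a Spearman rho of 0.425 (permutation p = 0.117, adjusted p = 0.287). That r was 0.258 without the 2 farthest libraries, so the relation rests on them, and 0.708 within controls and 0.874 within transplanted mice. With the neutrophil markers r was 0.638 (permutation p = 0.00901, adjusted p = 0.0348) and rho 0.593 (permutation p = 0.0227, adjusted p = 0.123), with r at 0.345 without the 2 farthest libraries, 0.0484 within controls and 0.819 within transplanted mice (exact permutation p = 0.00139, adjusted p = 0.00938). Their part in the C4b values of stroma was not tested. The transplant effect on C4b was larger in recipient CD45.1 cells than in stroma by a log2 of 2.06 ± 0.41 (SE; 95% interval 1.26 to 2.85, edgeR adjusted p = 0.00281). It was the only 1 of the 9 members that passed in this test of a difference, where 2.8% of 22991 genes did (1.66% higher and 1.14% lower). With the animal as a block in limma-voom, as the sorts came from the same mice, the difference was 2.15 (adjusted p = 0.0763).

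Cfb, the protease of the alternative pathway, was also higher in recipient and donor cells, at low levels and on the TPM scale. Recipient cells read 3.68, 3.06, 7.62, 3.15, 3.48, 6.13 and 2.74 TPM, and controls 2.88, 1.93, 2.24, 1.16, 1.74, 2.56, 2.04 and 1.5. Of the 7 recipient libraries 6 lay above every control, and recipient library 7 lay below control library 1. On log2(TPM + 0.1) the difference was 1.00 ± 0.24 (SE; limma adjusted p = 0.0198, where 8.67% of 13094 genes passed). The exact two-sided permutation test of the Cfb values alone gave p = 0.000622. Blocking on the day of euthanasia, in the 10 libraries of days that held both groups, gave 0.57 ± 0.22 (SE; limma adjusted p = 0.177), which did not pass.

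Donor cells read 2.41, 3.32, 3.97, 3.23, 5.34, 2.90 and 2.81 TPM for Cfb, of which 5 lay above every control. The difference from controls on the same scale was 0.74 ± 0.21 (SE; limma adjusted p = 0.0105, where 35.5% of 12964 genes passed; exact permutation p = 0.00186). Without donor library 1 it was 0.82 (limma adjusted p = 0.00902), and with the day as a block 0.44 (limma adjusted p = 0.141). Donor and recipient cells differed by -0.25 ± 0.20 (SE; limma adjusted p = 0.552, where 7.55% of genes passed). With the animal as a block, as both came from the same mice, the SE was 0.13 (limma adjusted p = 0.219, where 2493 of 12756 genes passed). The counts of Cfb in these sorts were 0 to 7 a library, under the filter on low counts. Fitted without that filter, the counts gave Cfb a log2 of 1.19 ± 0.64 in recipient cells (SE; edgeR adjusted p = 0.33) and 1.33 ± 0.64 in donor cells (SE; edgeR adjusted p = 0.137), neither past the test. For Cfb between donor and recipient cells these counts gave 0.25 (edgeR adjusted p = 0.841), opposite in sign to the TPM value. The marker changes given for C4b stand beside Cfb in the same libraries, and their part was not tested. On log2(TPM + 0.1) the neighbour C2 differed from controls by 1.58 in donor cells (exact permutation p = 0.0152). In recipient cells C2 differed by 0.34 (exact permutation p = 0.64). Its geometric means were 0.791 TPM in donor cells, 0.277 in recipient cells and 0.197 in controls. The part of readthrough in the Cfb values was not tested.

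In stroma Cfb was at 47.4 to 125.8 TPM in controls, with a median of 78.5, and at 24.2 to 179.4 in transplanted mice, with a median of 83.1. The 3 highest and the lowest of the 15 libraries were all from transplanted mice. The log2(TPM + 0.1) difference was -0.01 ± 0.37 (SE; limma adjusted p = 0.997, where 3.44% of 16465 genes passed), and the count test gave 0.34 ± 0.36 (SE; edgeR adjusted p = 0.982). Without transplanted library 5, the lowest, the TPM difference was 0.31 ± 0.25 (SE; limma adjusted p = 0.555, where 1120 of 16715 genes passed). Over the 15 libraries Cfb correlated with the summed mesenchymal markers, which include the stromal chemokine gene Cxcl12. Pearson's r of the log values was 0.882 (permutation p = 1e-05, the smallest these permutations can give; adjusted p = 9e-05 over the same 27 relations), and Spearman's rho was 0.839 (permutation p = 0.00018; adjusted p = 0.00162). Without the 2 libraries farthest from the median marker level r was 0.821, and within the groups it was 0.905 in controls and 0.962 in transplanted mice.

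C3, on which all complement pathways converge, was abundant in every blood-cell sort and did not pass the test in any comparison with controls. Recipient cells ranged from 294.9 to 481.2 TPM with a median of 417.6, donor cells from 369.8 to 563.3 with a median of 455.2, and controls from 193.0 to 432.2 with a median of 381.4. The 3 ranges overlapped, and control library 4 at 193.0 TPM lay well below the next control at 367.2. Against controls C3 differed by a log2 of 0.09 ± 0.13 in recipient cells (SE; 95% interval -0.15 to 0.34, edgeR adjusted p = 0.658) and 0.26 ± 0.13 in donor cells (SE; edgeR adjusted p = 0.107).

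The donor differences of C3 depended on the block. Blocked by day, the donor difference from controls was 0.25 ± 0.08 (SE; edgeR adjusted p = 0.0199, where 46% of genes passed). Between donor and recipient cells it was 0.18 ± 0.12 (SE; edgeR adjusted p = 0.36), and 0.17 ± 0.05 with the animal as a block (SE; edgeR adjusted p = 0.0107, where 33.8% of genes passed). Without donor library 5 the donor difference from controls was 0.32 (edgeR adjusted p = 0.0474), without donor library 1 it was 0.30 (edgeR adjusted p = 0.0896), and without control library 4 it was 0.18 (edgeR adjusted p = 0.168).

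In stroma C3 was lower than in the other sorts, at 40.8 to 69.7 TPM in controls and 14.9 to 181.4 TPM in transplanted mice. The transplanted mice thus spread to both sides of the controls. The low side rests on transplanted library 5 at 14.9 TPM, the next lowest being 40.7 beside a control minimum of 40.8. That library was also the lowest of the 15 for C4b and Cfb, and for the summed mesenchymal (2512 TPM) and neutrophil (6582 TPM) markers. The log2 fold change of C3 was 0.57 ± 0.37 (SE; edgeR adjusted p = 0.858). On log2(TPM + 0.1) it was 0.15 (limma adjusted p = 0.95). The median of all genes tested in stroma was 0.04 in the count fit (26191 genes) and -0.11 in the TPM fit of genes of at least 1 TPM (16465 genes), which differ in scale and in the genes tested. Over the 15 stroma libraries C3 had a Pearson r of 0.782 with the summed mesenchymal markers (permutation p = 0.00217, adjusted p = 0.0117) and a Spearman rho of 0.486 (permutation p = 0.0684, adjusted p = 0.192). The r was 0.544 without the 2 farthest libraries, 0.191 within controls and 0.954 within transplanted mice (exact permutation p = 0.00119, adjusted p = 0.00938). The part of mesenchymal RNA in the C3 values was not tested.

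C6, a component of the membrane attack complex, was a stroma transcript in these samples. It was listed at 0 TPM in all donor, control and CD11b libraries and in 5 of 7 recipient libraries, and the other 2 recipient libraries held 2 reads each. A donor library, though listed at 0 TPM, also held 2 reads. In control stroma it read 4.86, 2.60, 12.4, 2.02, 6.35, 1.52, 6.82 and 2.94 CPM. In stroma of transplanted mice it read 11.4, 5.28, 10.7, 8.57, 4.30, 12.7 and 7.72 CPM. The transplanted values were mostly higher, but control library 3, at 12.4 CPM, lay above all but 1 of them. The means were 8.67 ± 3.15 (SD, n = 7) and 4.94 ± 3.60 CPM (n = 8), a log2 change of 0.96 ± 0.30 (SE), which did not pass (edgeR adjusted p = 0.18).

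Single libraries decided the C6 call. Without control library 3 the log2 fold change was 1.18 (edgeR adjusted p = 0.0394), and without library 5 of the transplanted mice 1.12 (edgeR adjusted p = 0.0242). By sex it was 0.33 in males (edgeR adjusted p = 0.986) and 1.65 in females (edgeR adjusted p = 0.217). None of the 9 members passed in stroma, where 1.5% of 26191 genes did (0.466% higher and 1.03% lower). At an unadjusted p below 0.05 there was 1 member, C6, against 7.93% of all genes, and DESeq2 called none (2.86% of all genes).

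Erythroid markers moved with the transplanted stroma group. Of 10 such markers 5 rose, among them the haem synthesis gene Alas2 at a log2 of 3.50 and the beta-globin gene Hbb-bs at 3.33, and their summed TPM did not overlap between the groups. Within control stroma C6 correlated with the erythroid sum (Pearson r = 0.866, exact permutation p = 0.00437, adjusted p = 0.0262 over 54 relations within groups; Spearman rho = 0.881, exact permutation p = 0.00724, n = 8). In transplanted stroma r was 0.654 (exact permutation p = 0.112, adjusted p = 0.398) and rho 0.643 (exact permutation p = 0.139, n = 7). The part of erythroid RNA in the C6 values was not tested further.

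**Figure D3:**
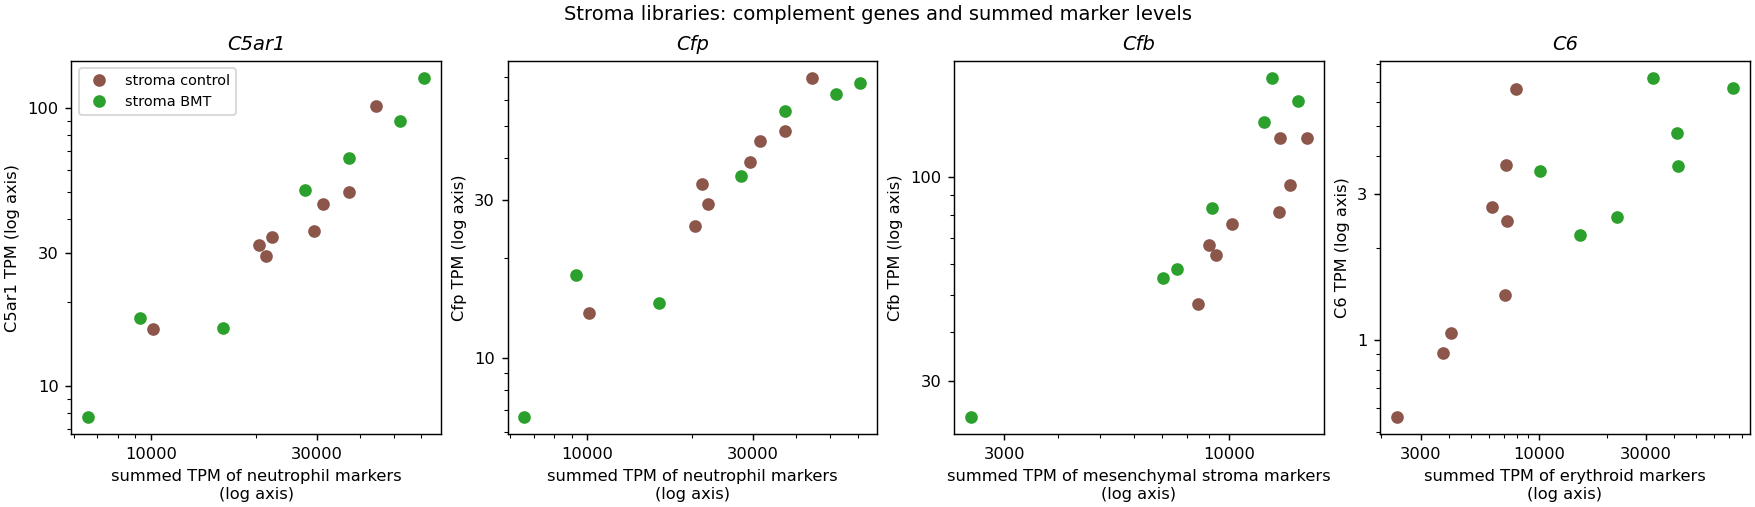
Each panel sets the TPM of 1 gene (y axis, log scale) in the 15 stroma libraries against the summed TPM of a marker list (x axis, log scale), with control and transplanted mice in different colours. C5ar1 and Cfp rise with the neutrophil markers and Cfb with the mesenchymal markers in both groups, while the erythroid sums beside C6 do not overlap between the groups (2338 to 7898 against 10140 to 72680 TPM).

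Cfp, which encodes properdin, hardly varied between the CD45 sorts. Recipient cells ranged from 135.9 to 157.1 TPM with a median of 145.9, donor cells from 124.7 to 160.4 with a median of 146.6, and controls from 134.7 to 167.0 with a median of 140.1. The ranges overlapped throughout. The log2 fold change against controls was -0.03 ± 0.07 in recipient cells (SE; 95% interval -0.17 to 0.11, edgeR adjusted p = 0.787) and -0.02 ± 0.08 in donor cells (SE; 95% interval -0.17 to 0.13, edgeR adjusted p = 0.844). On log2(TPM + 0.1) both were at 0.02, above 0.

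C3ar1, the receptor for C3a, was a rare transcript. Recipient cells ranged from 2.07 to 3.13 CPM with a median of 2.74, donor cells from 2.12 to 4.05 with a median of 2.67, and controls from 1.16 to 3.36 with a median of 1.94, on 20 to 77 reads a library. The ranges overlapped. Against controls it differed by a log2 of 0.32 ± 0.16 in recipient cells (SE; edgeR adjusted p = 0.184) and 0.43 ± 0.18 in donor cells (SE; edgeR adjusted p = 0.0552). The donor value passed with DESeq2 (adjusted p = 0.0479, where 47% of all genes passed) and without donor library 3 (edgeR adjusted p = 0.0383), control library 4 (0.0181) or control library 8 (0.0277), and was 0.42 without donor library 1 (edgeR adjusted p = 0.0797).

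C5ar1, the main C5a receptor, was abundant and variable. Recipient cells ranged from 98.6 to 248.7 TPM with a median of 166.2, donor cells from 105.0 to 239.6 with a median of 186.3, and controls from 114.7 to 229.5 with a median of 216.0. The ranges overlapped almost fully, with log2 fold changes of -0.22 ± 0.17 (SE; edgeR adjusted p = 0.404) in recipient and -0.13 ± 0.18 (SE; edgeR adjusted p = 0.596) in donor cells. C5ar2 ranged from 3.12 to 5.48 TPM in recipient cells with a median of 4.50, from 3.50 to 6.15 in donor cells with a median of 4.47 and from 3.33 to 7.01 in controls with a median of 4.54. Its log2 fold changes were -0.20 ± 0.13 (SE; edgeR adjusted p = 0.315) and -0.18 ± 0.14 (SE; edgeR adjusted p = 0.298). Neither C5a receptor passed in either sort. Neutrophil markers, which C5ar1 accompanies in stroma, summed to 76960 to 191100 TPM in recipient cells and 114200 to 164700 TPM in controls, and none of the 10 passed with edgeR (2 had an unadjusted p below 0.05).

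Cd93 was highest in the CD45 sorts, at 46.5 to 69.9 TPM in recipient cells with a median of 59.6, 44.3 to 64.8 in donor cells with a median of 57.1, and 32.6 to 60.1 in controls with a median of 50.5. The recipient libraries lay toward the upper end of the control range and overlapped it. The log2 fold change was 0.22 ± 0.09 in recipient cells (SE), which did not pass (edgeR adjusted p = 0.0942), and 0.11 ± 0.09 in donor cells (SE; edgeR adjusted p = 0.375). With C4b it made 2 of the 7 members with an unadjusted p below 0.05 in recipient cells, where 31.5% of all genes had one.

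**Figure D4:**
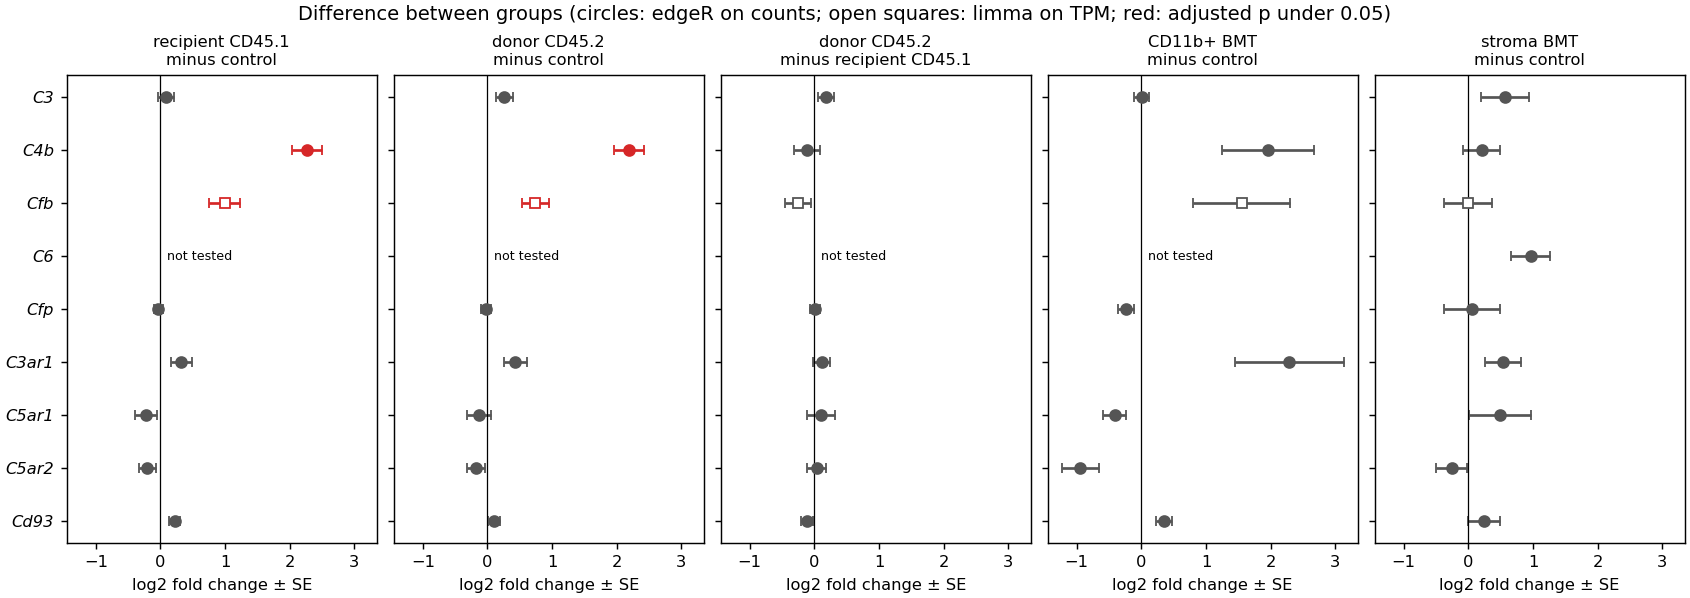
Log2 fold changes of the 9 genes (y axis) with bars of 1 SE to each side (x axis), 1 panel for each comparison with controls and for donor against recipient cells; open squares are Cfb from log2(TPM + 0.1), circles are the others from counts, and red marks an adjusted p below 0.05. C4b stands near 2.27 in recipient and 2.19 in donor cells, and near 0.20 in stroma, where no member passed.

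The receptors were present in stroma as well. C5ar1 ran from 16.1 to 101.6 TPM in control stroma, with a median of 35.3, and from 7.73 to 128.1 in transplanted mice, with a median of 50.8. Over the 15 libraries it correlated with the summed neutrophil markers, such as the neutrophil-secreted factor gene Retnlg, with a Pearson r of 0.965 (permutation p = 1e-05, adjusted p = 9e-05) and a Spearman rho of 0.961 (permutation p = 1e-05, adjusted p = 0.000135). It was 0.957 without the 2 farthest libraries, 0.936 within controls and 0.976 within transplanted mice. Cfp gave r = 0.962 (permutation p = 1e-05, adjusted p = 9e-05) and rho = 0.975 (permutation p = 1e-05, adjusted p = 0.000135), with r at 0.959 without the 2 farthest libraries, 0.984 within controls and 0.958 within transplanted mice. Against controls their log2 fold changes in stroma were 0.49 ± 0.48 for C5ar1 (SE; edgeR adjusted p = 0.979) and 0.06 ± 0.43 for Cfp (SE; edgeR adjusted p = 0.998). On log2(TPM + 0.1) both were below 0.

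The other stroma receptors were low. C3ar1 was at 1.24 ± 0.344 CPM in control (SD, n = 8) and 1.81 ± 0.633 CPM in transplanted stroma (n = 7), with a log2 change of 0.53 ± 0.27 (SE; edgeR adjusted p = 0.71). C5ar2 was at 5.31 ± 1.46 and 4.45 ± 1.36 CPM (log2 -0.26 ± 0.24, SE; edgeR adjusted p = 0.968), and Cd93 at 28.2 ± 7.26 and 33.1 ± 13.1 CPM (log2 0.24 ± 0.25, SE; edgeR adjusted p = 0.979).

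In CD11b+ cells, 52 weeks after transplantation, no member passed with edgeR, and none of 15257 genes did (0%). Of the 7 members tested 5 had an unadjusted p below 0.05, where 16.1% of all genes had one, and DESeq2 called 3 of them, C4b, C3ar1 and C5ar2, where it called 1.91% of all genes. C4b read 3.99, 3.71 and 10.1 CPM in transplanted mice and 2.93, 0.46 and 1.2 in controls, so the groups did not overlap. For any gene of this sort, 3 values against 3 without overlap have an exact permutation p of 0.1. The share of all genes without overlap was not counted, so its absence for a member is a description only. C4b differed by a log2 of 1.95 ± 0.71 (SE; edgeR adjusted p = 0.281; DESeq2 adjusted p = 0.0301), and 1.33 without transplanted library 3 (edgeR adjusted p = 0.489). C4b differed between the CD11b and recipient comparisons by a log2 of 0.37 ± 0.60 (SE; edgeR adjusted p = 0.849), where 0.0767% of 15639 genes passed.

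C3ar1 read 1.16, 1.93 and 9.70 CPM in transplanted CD11b+ cells, on 38, 82 and 488 reads, and 1.04, 1.04 and 0.55 CPM in controls. All transplanted values were above the controls, and library 3 was far above the rest. They differed by a log2 of 2.29 ± 0.84 (SE; edgeR adjusted p = 0.281; DESeq2 adjusted p = 0.0311), and 0.82 without library 3 (edgeR adjusted p = 0.542). The effect in recipient CD45.1 cells was smaller by 1.93 ± 0.60 (SE; log2, edgeR adjusted p = 0.176). Without transplanted library 1 that difference was -2.37 (edgeR adjusted p = 0.0238), and without library 3 it was -0.48 (edgeR adjusted p = 0.755).

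Cfb read 2.80, 3.17 and 25.1 TPM in transplanted and 2.25, 1.75 and 2.08 TPM in control CD11b+ cells, again without overlap and with library 3 apart. Its difference on log2(TPM + 0.1) was 1.55 ± 0.75 (SE; limma adjusted p = 0.362, where 0.00844% of 11844 genes passed), and 0.54 without library 3. The exact permutation p was 0.1, the smallest that 3 against 3 can give.

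C5ar2, the member of this sort with the smallest p, read lower in the transplanted mice. It read 25.7, 31.1 and 13.6 CPM in transplanted and 47.2, 47.2 and 40.9 CPM in control CD11b+ cells, without overlap. The log2 fold change was -0.94 ± 0.29 (SE; 0.52-fold, edgeR adjusted p = 0.271; DESeq2 adjusted p = 0.0126), and -0.66 without library 3 (edgeR adjusted p = 0.138). CD11b+ controls held more C5ar2 than any other group, 14.7 ± 1.44 TPM (SD, n = 3) against at most 7.01 TPM in any CD45 library. Against recipient CD45.1 cells the effect differed by 0.77 ± 0.29 (SE; edgeR adjusted p = 0.266).

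The remaining members differed less between the CD11b+ groups. C5ar1 was at 111.5 to 164.5 TPM in transplanted and 152.6 to 175.1 TPM in control mice, which overlapped (log2 -0.41 ± 0.17, SE; edgeR adjusted p = 0.297). Cd93 read 65.9, 58.1 and 83.6 CPM against 51.5, 57.1 and 54.4 (log2 0.35 ± 0.13, SE; edgeR adjusted p = 0.278), without overlap. Cfp read 169.4, 184.1 and 129.2 CPM against 190.3, 185.4 and 193.9 (log2 -0.24 ± 0.13, SE; edgeR adjusted p = 0.366), also without overlap. In TPM Cfp read 139.5, 137.6 and 126.2 against 130.7, 136.9 and 138.9, which overlapped, and the difference on log2(TPM + 0.1) was -0.01. C3 was level at 1998 ± 82.8 and 1990 ± 79.3 CPM (SD, n = 3 each), a difference of 0.01 ± 0.11 on the log2 scale (SE; edgeR adjusted p = 0.986). Transplanted library 3 was the highest or lowest of the 6 libraries for 7 of the 8 genes (in CPM, and in TPM for Cfb). The share of all genes for which it was so was not counted, so the 7 are not shown to be particular. Summed markers of macrophages, monocytes, T and NK cells and neutrophils did not overlap between the groups. They were 107.3 to 192.7 TPM in transplanted and 97.7 to 102.2 TPM in control mice for macrophages, 3116 to 3857 and 2716 to 2865 TPM for monocytes, and up to 291.9 and at most 140.5 TPM for T and NK cells, higher in all 3 transplanted libraries than in any control. Neutrophil markers summed to 228100 to 332700 and 348900 to 360900 TPM. The sums of B-lineage, erythroid, megakaryocyte, mesenchymal and endothelial markers overlapped between the groups. Of 73 markers tested over all lists none passed with edgeR, so these sums are a description only. Library 3 held the highest macrophage, monocyte and T and NK values and the lowest neutrophil value. The part of that makeup in these values was not tested.

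**Figure D5:**
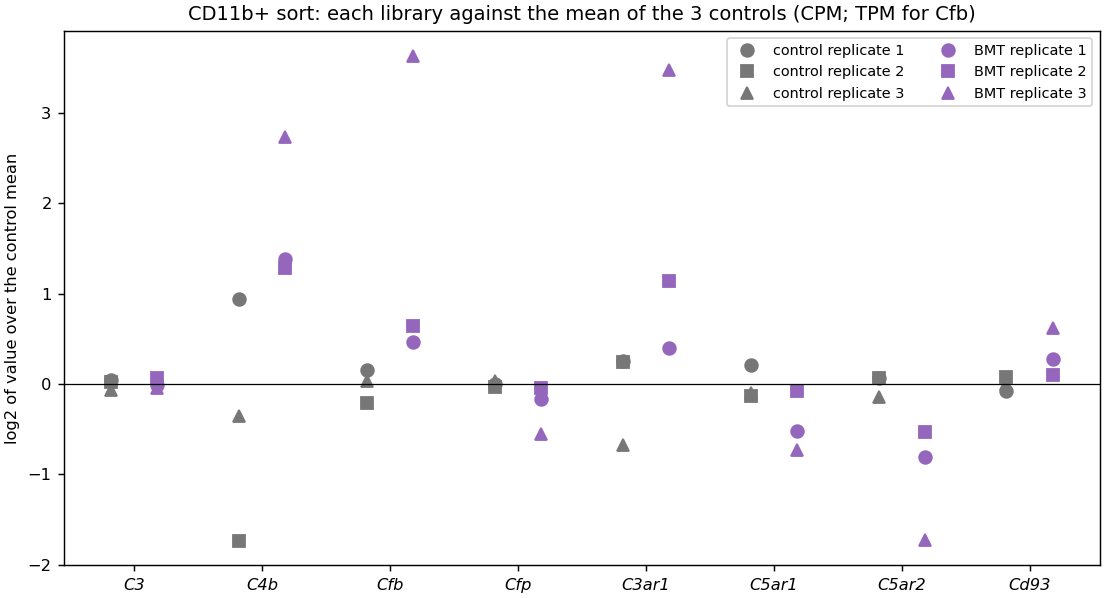
Each point is 1 CD11b+ library, as the log2 of its value over the mean of the 3 controls (y axis), for 8 of the genes (x axis; CPM, TPM for Cfb). Transplanted library 3 (triangle) lies farthest from the controls for C4b, Cfb and C3ar1 above them and for C5ar2 below them.

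Beyond the 9 members, 46 other complement genes were listed. In recipient cells 17 of them were tested, 6 rose (8.56% of all genes rose) and 2 fell (7.65%), with a median log2 of -0.01 against 0.01 for all genes. The chains of C1q, which starts the classical pathway, rose too, C1qb by 3.68 and C1qc by 4.16. Cd55, a membrane inhibitor of the C3-cleaving enzymes, fell to 51.8 ± 13.4 CPM (SD, n = 7) against 102.7 ± 27.5 in controls (n = 8), a log2 of -0.996 (edgeR adjusted p = 0.00187). Itgax, a chain of complement receptor 4, rose by 0.53 (edgeR adjusted p = 0.00661). Of the listed soluble regulators 2 were tested and both rose, with a median log2 of 1.165. Of the listed membrane regulators, Cd55 among them, 4 were tested and 1 fell.

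In donor cells 17 were tested, 7 rose (22.7% of all genes) and 4 fell (22.8%), with a median of 0.09 against 0.00. The complement receptor gene Cr2, a B-cell gene, fell by 5.32 on the log2 scale (edgeR adjusted p = 5.94e-07) beside the B-lineage markers. The inhibitor of the membrane attack complex Cd59a rose by 1.66 (edgeR adjusted p = 1.02e-05), Cd55 fell by 1.27 (edgeR adjusted p = 9.08e-05), and the protease gene C1ra rose by 0.88. Itgax fell by 0.71. Both soluble regulators tested (2 of 2) rose, with a median log2 of 0.948. Of 4 membrane regulators tested 1 rose and 2 fell. Between donor and recipient cells 1 of 19 was higher in donor cells (4.13% of all genes), Cd59a, and 6 were lower (9.9%), among them the C1q chains, Cr2 and Itgax. In stroma 42 were tested and 3 rose (0.466% of all genes), the C1q chains, with C1qb at 3.36 and C1qc at 2.56. In CD11b+ cells none of 20 passed with edgeR, with a median of 0.22 against 0.02 for all genes.

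Blood chimerism of the 7 transplanted mice ran from 0.63 to 5.99, for which the labels give no unit. No member followed log2 chimerism past the test in recipient, donor or stroma libraries, and no gene at all did (0% of 14625, 13990 and 31105 tested; 3.99%, 2.12% and 3.88% had an unadjusted edgeR p below 0.05). The members with an unadjusted p below 0.05 were all in stroma. Their slopes, as the log2 change for each doubling of chimerism, were 0.94 for C5ar1, 0.75 for Cfp and -0.50 for C3ar1, each with an edgeR adjusted p of 1. The 10 neutrophil markers had a median slope of 0.87 in the same libraries, with none past the test, and their part in these slopes was not tested. DESeq2 was not run on these slopes.

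Over the 22 libraries of the 3 CD45 sorts, the members had different nearest neighbours among about 11183 genes by Spearman's rho of TPM, given as a description since the libraries share groups and animals. C5ar1 was most like Padi4 (0.984), R3hdm4 (0.977) and Gpsm3 (0.976), and C5ar2 most like Inpp4a (0.93), Arfgef2 (0.894) and Reep3 (0.89). C3 was most like Agtrap (0.907), Megf9 (0.889) and Arhgdib (0.869), and C4b most like Jak3 (0.867), Lipg (0.85) and Dmkn (0.846). C3ar1 was most like Avpi1 (0.819), Lgals3 (0.75) and Cxcl16 (0.742), Cfp most like Sirpa (0.859), Dock8 (0.776) and Cotl1 (0.767), and Cd93 most like Ttc19 (0.844), Mbnl2 (0.833) and Arhgef10l (0.796). No 2 members shared a gene among these 3.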

How the data were processed

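RNA of 43 sorted marrow samples was sequenced. The submitters' processing notes name the aligner STAR 2.7.3a, the build GRCm39, the counter featureCounts (Subread 1.6.2) and, for CD11b samples, RSEM 1.3.3; the annotation, strand setting and merging of the stroma runs are not given in the sources used here. The deposited counts are whole reads per gene and were not normalized; the deposited TPM values sum to 1000000 a library within rounding. Of 56941 identifiers, 51948 matched a symbol. Groups came from sample titles.

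Counts were tested per pair of groups with edgeR 4.0.16 (R 4.3.3): filterByExpr, TMM, the quasi-likelihood F-test, sex as a covariate except in the all-male CD11b samples, and Benjamini-Hochberg adjustment over all genes tested, passing below 0.05. CPM are TMM-scaled. Standard errors of log2 fold changes come from these fits, and 95% intervals from them by a normal approximation. Cfb was tested in TPM with limma 3.58.1 on log2(TPM + 0.1) among genes of at least 1 TPM, chosen after seeing the data, and with exact two-sided permutation tests. Relations in stroma used log values and 100000 permutations, or all orders within groups. Alternatives were DESeq2 1.42.0, other scalings and filters, TPM scales, each sex alone, blocks, and leaving out each library. Fits were tested on simulated counts.

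Donor, recipient and stroma samples of 1 animal share it per the labels, and 5 days of euthanasia held both groups. Same-animal donor and recipient deviations correlated at 0.172 to 0.51, same-day ones at -0.0709 to 0.281 (recipient), -0.0532 to 0.204 (donor), -0.0197 to 0.452 (stroma) and -0.0456 to 0.0764 (CD11b). The members and lists were chosen with earlier results of these data known. Named were all members, the called other complement genes with the smallest p, example markers and the 3 genes most like each member tested. The p-values measure the spread between animals in all but the donor-against-recipient and recipient-against-stroma tests. Those main tests took libraries of the same animal as independent, with the animal as a block among the alternatives. A listed complement gene is not reported here by name.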

Additional observations from a re-analysis of the deposited data

Results flagged for a closer look

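Libraries that stand apart and differences between groups were looked for among the 9 genes. In 43 sets of a gene's levels in a group of 4 to 10 libraries, 2 held a library far from the others, and chance flags about 1 set in 20. C3 in control CD45.1 library 4 stood at 193.0 TPM, with the next lowest control at 367.2. C5ar1 in control stroma library 8 stood at 101.6 TPM, with the next highest at 50.0. The transplant effect on C4b differed between recipient CD45.1 cells and stroma by a log2 of 2.06 (edgeR adjusted p = 0.00281), and by 2.15 with the animal as a block (limma-voom adjusted p = 0.0763).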

How the results depend on the processing

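Of 985 alternative fold changes, 913 kept their direction and their side of the threshold, 4 lost the call, 13 gained it and 55 turned direction, all 55 of uncalled values. The count of members that passed in recipient cells was 2 with the filter on TPM (Cfb in addition, where 8.67% of all genes passed). It was 0 in females alone. In donor cells it was 2 with DESeq2 (47% of all genes), 2 with the TPM filter (35.5%) and 2 with the replicate block of day (46%). Leaving out single libraries gave 1 to 2 there. Between donor and recipient cells it was 1 with the replicate block of animal (33.8%). In CD11b+ cells it was 3 with DESeq2 (1.91%), and in the recipient against stroma test 0 with the animal block (2.06%). Leaving out single libraries gave 0 to 1 in stroma and in the recipient against CD11b test. The share of all genes in females alone or without single libraries is not given here. The causes were not tested. In recipient cells Cfp turned to 0.0208 on log2(TPM + 1), 0.021 on log2(TPM + 0.1) with either filter, 0.0398 with the day block and 0.00975 in females alone, and C5ar2 to 0.0176 in females. In donor cells Cfp turned to 0.0163, 0.0164 and, with the block, 0.0576, and to 0.0622 in females (-0.0702 to 0.0103 leaving out single libraries). Between donor and recipient cells, females gave C4b 0.186, C5ar1 -0.0706 and C5ar2 -0.134, and the TPM scales gave Cfp -0.0073 and -0.00736. Leaving out single libraries there gave Cfp -0.027 to 0.0584, C5ar1 -0.04996 to 0.256 and C5ar2 -0.0729 to 0.1018. In stroma the TPM scales gave Cfp -0.253 and -0.273 and C5ar1 -0.0134 and -0.0286, Cfb was 0.0188 without the sex covariate and 0.144 with the day block, and leaving out single libraries gave Cfp -0.188 to 0.227 and Cfb on TPM -0.235 to 0.312. In CD11b+ cells C3 was -0.00648 with RLE scaling, -0.00648 with DESeq2 and -0.0284 to 0.0341 leaving out single libraries, and the recipient against CD11b difference of C4b was -0.505 to 0.985. Depth limits C3ar1 and C4a in the CD45 sorts, at 20 to 77 and 4 to 21 reads a library. It also limits C4b, at 12 to 50 reads a control library, and Cfb, at 0 to 7 reads a library there. The replicate blocks changed no call of a member other than those of Cfb, C3 and C4b given with the results.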
